A study of Mus musculus with 2 samples.

Results

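Amino acid and peptide transporters of the colon mucosa were compared between mice with and without epithelial HIF-2α. The members were all probe sets whose platform gene symbol belongs to the solute carrier families SLC1, SLC3, SLC6, SLC7, SLC15, SLC36, SLC38 or SLC43. This gave 129 probe sets of 65 genes, out of 45101 probe sets and 18193 named genes on the array. The symbol rule is wider than its label: family SLC6 also holds carriers of neurotransmitters, taurine and creatine, and Slc43a3 encodes a purine nucleobase carrier.

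Both groups were C57BL/6 mice on standard chow given 3% DSS (dextran sulfate sodium, which damages the lining of the colon) for 3 days before the mucosa was scraped. Hif-2αF/F mice carry the conditional allele of Epas1, the gene of hypoxia-inducible factor 2α. In Hif-2αΔIE mice the gene is deleted; ΔIE is read here, from knowledge of this model, as the intestinal epithelium, and the labels do not name the Cre line. The labels give an age of 6 to 8 weeks, and the design text gives 7 weeks with 6 F/F and 5 ΔIE mice. Each genotype has 1 array; pooling of RNA from several mice is not stated in the labels. No difference below could therefore be tested or given an error between mice, and each compares these 2 arrays.

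Transporters of these families move amino acids and small peptides across the apical and basolateral membranes of epithelial cells, across lysosomal membranes and, in other cells, across the plasma membrane. Peptides enter enterocytes with protons through PEPT1, while free amino acids enter with sodium or protons or in exchange for other amino acids. The SLC7 light chains reach the membrane by pairing with a heavy chain of family SLC3. The small intestine absorbs the bulk of dietary protein, and colonic epithelium handles smaller amounts. HIF-2α is a transcription factor that is stabilised when oxygen is low.

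Levels are on the log2 scale of RMA (robust multi-array averaging), and a difference is the ΔIE level less the F/F level, so that a negative value is lower in ΔIE. A gene took the value of its brightest probe set. It was kept where the higher of its 2 values reached 6.11, the median over all probe sets. RMA gives no detection call, so where 1 value lay below this filter the difference has no reliable size; such genes are counted at 2-fold by their RMA values, and their levels are given in place of an exact fold. Brightness also depends on the probes, so levels of different genes are not ranked. In mucosa scraped as bulk tissue, fewer cells of a type and less RNA per cell cannot be told apart.

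The genotype and tissue were checked first. The 4 probe sets for Cre recombinase read 2.92 to 4.22 in F/F and 7.86 to 10.01 in ΔIE. The probe sets of Epas1 differed by -0.13 and 0.16, and their position relative to the deleted part was not determined here. All 12 markers of colonic epithelium were kept, with values of at least 10.49 in F/F and 11.12 in ΔIE and a median difference of 0.15, so this tissue was present on both arrays. Other marker lists differed strongly. Genes of B cells (median -1.81, 6 of 6 kept genes lower), neutrophils (-1.53, 8 of 8), posterior Hox genes (-1.49, 7 of 7), squamous epithelium (-1.36, 7 of 7) and macrophages (-1.12, 10 of 10) were lower in ΔIE. Genes of skeletal muscle (1.28, 5 of 5), enteroendocrine cells (1.24, 7 of 8) and adipocytes (0.79, 5 of 5) were higher. Of all 11899 genes kept, 5529 lay below 0 and 6275 above. Hoxa10, Hoxa13 and Hoxd11 and the B cell genes Cr2 and Pax5 passed the filter through F/F alone. The muscle gene Tnnt3 passed it through ΔIE alone. The differences of such genes have no reliable size, and the counts and medians of their lists include them. Fibroblast and matrix genes had a median of -0.94, endothelial genes -0.66, T and NK cell genes -0.37, enteric neuron and glia genes 0.09 and small intestine genes 0.25. The part of these differences in the transporter values was not tested.

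Transporters on both sides of 0 differed by 2-fold or more. Of 40 transporter genes kept, 6 were at least 2-fold lower in ΔIE: Slc15a1, Slc6a20a, Slc38a4, Slc7a11, Slc15a3 and Slc36a1. Only Slc3a1 was at least 2-fold higher, and 27 of the 40 differed by less than 1.5-fold, beside 10112 of all 11899 genes kept. Among all genes kept, 5.30% were lower and 1.15% higher at 2-fold. The transporter median was 0.03 against 0.02 for all genes, while the quartiles were wider, at -0.61 and 0.22 against -0.18 and 0.19. Both the count of 6 and the low quartile of -0.61 draw on genes that lay below the filter in ΔIE. Of the 40 genes, 5 were kept through F/F alone, namely Slc15a1, Slc6a20a, Slc38a4, Slc7a11 and Slc7a8. All of these were lower in ΔIE, and 0 genes were kept through ΔIE alone. How far these 5 genes set the wider spread is not known, because the quartiles were not taken again without them. With no filter the same 6 genes were lower, of 65, against 3.72% of all genes. With both arrays required above the filter, Slc15a3 and Slc36a1 were the 2 lower genes of 35 kept, against 4.28% of all genes. At 1.5-fold, 11 transporters were lower and 2 higher, beside 10.6% and 4.37% of all genes. The members nearest the 2-fold threshold were Slc36a1 (-1.32) inside it and the creatine carrier gene Slc6a8 (-0.95) outside it.

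**Figure D1:**
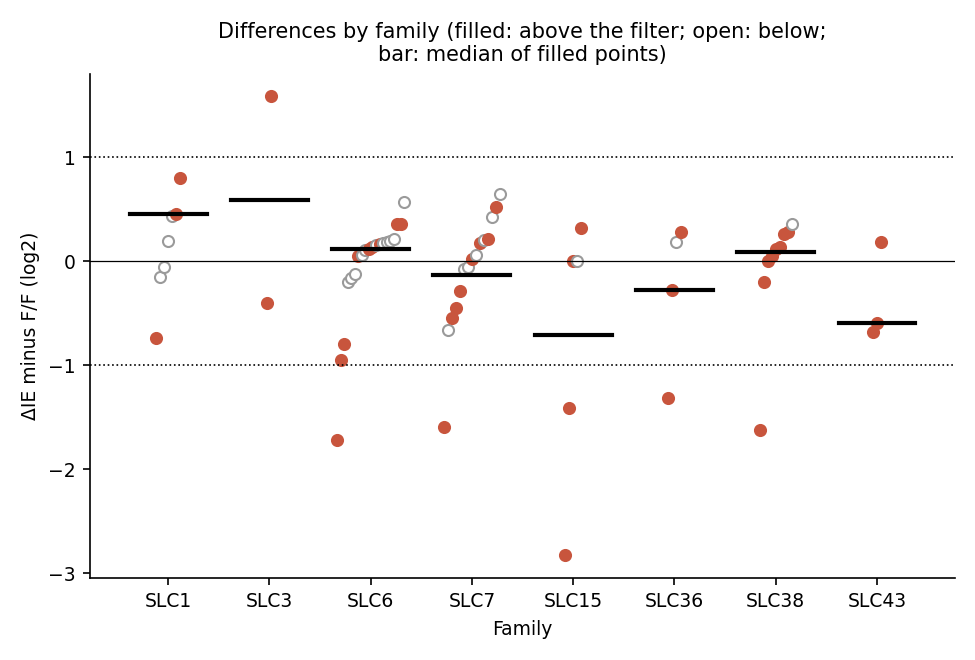
Difference (ΔIE minus F/F, log2) of each of the 65 transporter genes by family; filled points are genes above the expression filter, open points genes below it, bars the family medians over filled points and dotted lines 2-fold. Slc15a1 at -2.82 is the lowest point, and Slc3a1 at 1.58 is the highest.

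The sequences before the start sites of 4 of the 7 genes at 2-fold are shown because they are the largest difference (Slc15a1), the cystine carrier (Slc7a11), the lysosomal and brush border carrier with HIF core letters (Slc36a1) and the gene that was higher (Slc3a1). Each is the 250 bases before a start site from RefSeq, build GRCm38.p6, 5′ to 3′ on the gene's strand: Slc15a1 at chr14:121505255-121505504 (minus strand), Slc7a11 at chr3:50443614-50443863 (minus), Slc36a1 at chr11:55204090-55204339 (plus) and Slc3a1 at chr17:85028097-85028346 (plus). Capitals mark letters found on either strand that match the HIF core ACGTG, the ATF4 and C/EBP element TGATGNAA or the antioxidant element TGACNNNGC.
Slc15a1: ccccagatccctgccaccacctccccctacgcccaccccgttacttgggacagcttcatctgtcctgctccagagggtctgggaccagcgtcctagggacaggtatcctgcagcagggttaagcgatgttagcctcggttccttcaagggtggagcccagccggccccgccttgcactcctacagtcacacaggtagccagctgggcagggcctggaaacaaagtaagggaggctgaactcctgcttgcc
Slc7a11: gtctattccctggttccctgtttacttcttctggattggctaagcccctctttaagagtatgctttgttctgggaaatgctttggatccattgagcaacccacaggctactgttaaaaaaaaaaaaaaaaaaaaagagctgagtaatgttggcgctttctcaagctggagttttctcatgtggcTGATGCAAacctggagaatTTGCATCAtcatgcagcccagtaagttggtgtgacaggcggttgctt
Slc36a1: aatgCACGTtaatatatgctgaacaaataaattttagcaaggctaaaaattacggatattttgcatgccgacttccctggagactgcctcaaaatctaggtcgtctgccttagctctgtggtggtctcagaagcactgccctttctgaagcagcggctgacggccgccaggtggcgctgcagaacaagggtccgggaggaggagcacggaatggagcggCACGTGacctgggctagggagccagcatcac
Slc3a1: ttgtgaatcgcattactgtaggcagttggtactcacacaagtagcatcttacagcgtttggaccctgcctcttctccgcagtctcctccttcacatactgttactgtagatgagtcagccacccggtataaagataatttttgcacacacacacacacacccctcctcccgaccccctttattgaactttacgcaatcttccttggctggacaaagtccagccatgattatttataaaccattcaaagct

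The Slc7a11 window held TGATGNAA at 2 places, starting 66 and 47 bases before the start site, which face each other on opposite strands. This element is the letter pattern read by ATF4 with C/EBP partners in the amino acid response. Over all 32851 windows of the same length, 3.45% held it, and 2.03% of the windows of genes kept. Of the windows of kept transporter genes 7.32% held it (3 of 41), from 2 genes. Slc7a7, which differed by 0.02, held it too, in 2 of its 5 windows. The antioxidant element was in 10.2% of all windows, 11.9% of those of genes kept and 14.6% of those of kept transporter genes (6 of 41). The transporters with it, Slc38a2, Slc43a1, Slc6a9, Slc7a1 and Slc7a6, differed by 0.05 to 0.21. The Slc36a1 window held the HIF core at 246 bases before the start site and again within CACGTG, where the letters overlap on both strands and start 31 and 30 bases before it; CACGTG is also the E-box of other factors. Of all windows 16.6% held the HIF core, of the windows of all genes kept 21.2%, and of the windows of kept transporter genes 19.5% (8 of 41), so the transporter share was near the background. These 41 windows covered 28 of the 40 kept transporter genes, and the rest were not searched. The other transporters with a HIF core in a window, Slc15a2, Slc38a10, Slc38a7, Slc3a2, Slc43a1 and Slc7a6, differed by -0.40 to 0.32. The windows of Slc15a1, Slc6a20a, Slc38a4 and Slc3a1 held none of the 3 patterns, and Slc15a3 had no entry. A match of letters is a description and not a binding site.

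The peptide carriers of family SLC15 went both ways, from -2.82 to 0.32, and from -1.41 without Slc15a1, which passed the filter through F/F alone. Slc15a1, which encodes the proton-coupled peptide carrier PEPT1 of the intestinal brush border, was at 7.19 for F/F and 4.37 for ΔIE. The ΔIE value lay below the filter and at the lower quartile of its array, 4.37, so the size of the difference, -2.82 by the RMA values, is uncertain. This rests on 1 probe set. Slc15a2, the gene of the higher-affinity carrier PEPT2 of kidney and other epithelia, went the other way, from 6.53 in F/F to 6.85 in ΔIE. Its 2 dimmer probe sets, below the filter, differed by 0.44 and 0.50.

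Slc15a3 and Slc15a4 encode lysosomal carriers of histidine and peptides that are known from immune cells. Slc15a3 was 2.66-fold lower, at 6.77 in ΔIE against 8.18 in F/F. Slc15a4 read 8.24 on both arrays, with identical values to every printed digit. The macrophage markers were lower on the same arrays, with mean levels over the list of 9.32 in F/F and 8.32 in ΔIE, and their part in the Slc15a3 value was not tested. Slc15a5, an orphan member, read 2.99 on both arrays. Of 6 transporter probe sets with identical values on both arrays, 3 belonged to this family; the whole table had 1699 such probe sets.

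**Figure D2:**
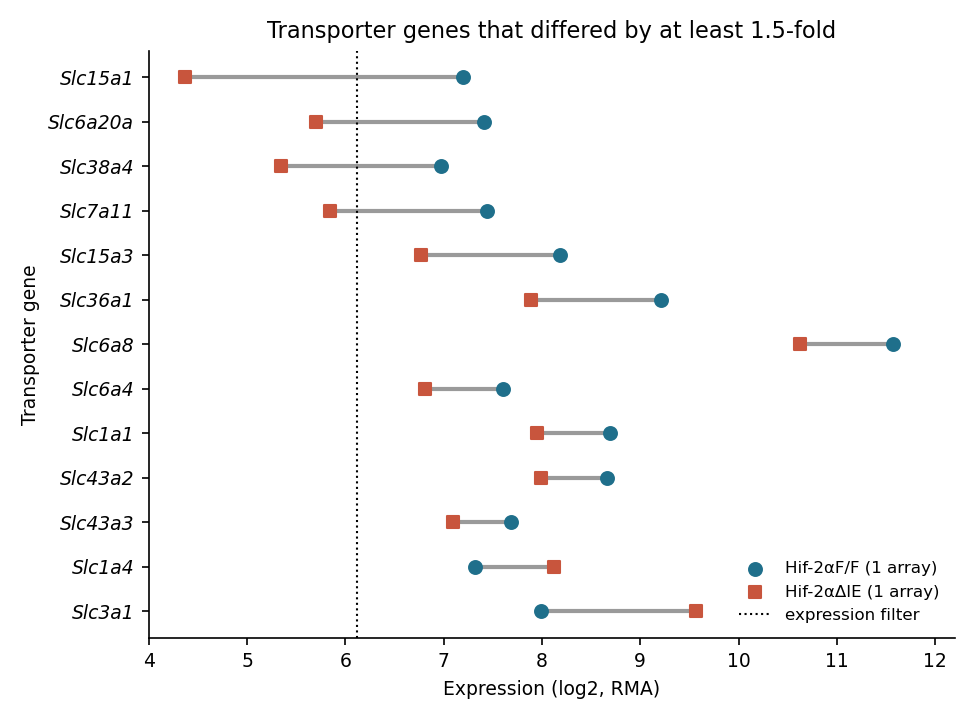
Expression (log2, RMA) on the F/F array (circles) and the ΔIE array (squares) of the 13 transporter genes that differed by at least 1.5-fold, with the expression filter as a dotted line. Slc15a1, Slc6a20a, Slc38a4 and Slc7a11 cross the filter, whereas Slc6a8 reads 11.58 and 10.63, well above it.

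The genes of heavy and light chains differed by unlike amounts. Slc3a1 encodes rBAT, the heavy chain that forms the cystine and dibasic amino acid exchanger with the light chain of Slc7a9. Slc3a1 was 3.00-fold higher, at 9.57 in ΔIE against 7.99 in F/F, and took place 21 from the highest among all genes kept. Slc7a9 was at 8.28 for F/F and 7.99 for ΔIE, a difference of -0.29, so the differences of these partners lay 1.87 apart. Each was measured by 1 probe set. Slc7a13, a renal light chain that also pairs with rBAT, stayed below the filter at 5.05 and 5.11.

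Slc3a2 encodes 4F2hc (CD98), the heavy chain of the other light chains. It was at 10.68 for F/F and 10.28 for ΔIE and so differed by -0.40. Its light chains ranged more widely than Slc3a2 itself. Slc7a11, which encodes the xCT subunit that imports cystine in exchange for glutamate, read 7.44 in F/F and 5.84 in ΔIE by its brighter probe set and 7.34 and 5.54 by the other. Its differences of -1.60 and -1.81 by the RMA values were the lowest in the family, but both ΔIE values lay below the filter. Slc7a5 (LAT1, large neutral amino acids) differed by -0.45, from 8.76 to 8.31. Slc7a8 (LAT2, the basolateral neutral exchanger) was at 6.53 for F/F and 5.99 for ΔIE. The cationic and neutral exchangers of Slc7a7 and Slc7a6, which release cationic amino acids at the basolateral membrane and in other cells, differed by 0.02 and 0.18. Slc7a10, a small neutral amino acid exchanger of brain and fat, was under the filter on both arrays, at 5.45 in F/F and 6.09 in ΔIE.

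The kept members of family SLC7 that work without a heavy chain were a little higher in ΔIE. Slc7a1, the widely expressed cationic amino acid carrier CAT1, was at 9.54 for F/F and 9.75 for ΔIE. Slc7a4, a related gene without an established substrate, read 8.06 and 8.59, and its other probe set above the filter differed by 0.60. Slc7a2, the cationic carrier CAT2 of macrophages and liver, read 5.55 and 4.89, below the filter. Over the family, 8 of 15 genes were kept, 4 of them below 0 and 4 above, with a median of -0.13.

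In family SLC6 the amino acid carriers differed in opposite directions. Slc6a20a, the imino acid carrier SIT1 that takes up proline, was at 7.41 for F/F and 5.70 for ΔIE by its 1 probe set. The ΔIE value lay below the filter, so the size of the difference, -1.71 by the RMA values, is uncertain. Slc6a20b, its neighbour on the chromosome, read 3.70 and 3.90, below the filter. Slc6a14, which encodes a broad carrier of neutral and cationic amino acids in colon and lung, was at 10.97 for F/F and 11.33 for ΔIE, and its second probe set read 10.56 and 10.60. Slc6a19, the main neutral amino acid carrier of the small intestine, read 4.51 and 5.08 and its dimmer probe set 3.45 and 3.61. Both probe sets of Slc6a19 were thus dim on both arrays.

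Among the other carriers of the family, 2 genes were lower. Slc6a8, the creatine carrier, was 1.93-fold lower, at 10.63 in ΔIE against 11.58 in F/F, and its second probe set read 10.78 and 9.80. Slc6a4, the serotonin carrier SERT that epithelial and neuronal cells use to clear serotonin, read 7.61 and 6.81, 1.74-fold lower. Tph1, the serotonin-synthesising enzyme of enteroendocrine cells, read 6.57 and 8.27 on the same arrays, in the opposite direction. The enteroendocrine list, which holds Tph1 itself, was higher as a whole, with a median of 1.24. Of its 8 kept genes 7 lay above 0, beside 6275 of all 11899 genes kept. The part of enteroendocrine cells in the Tph1 value was not tested. Slc6a6, the taurine carrier TauT, was at 11.48 for F/F and 11.84 for ΔIE, and its other bright probe set differed by 0.53. The glycine carrier gene Slc6a9 differed by 0.12, the noradrenaline carrier gene Slc6a2 by 0.17, the brain proline carrier gene Slc6a7 by 0.14 and the vesicular amino acid carrier gene Slc6a17 by 0.05. The 6 kept neurotransmitter, osmolyte and creatine carriers of this family had a median of 0.13.

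Family SLC1 held a lower glutamate carrier beside higher neutral exchangers. Slc1a1, the epithelial carrier EAAT3 for glutamate, aspartate and cysteine, read 8.69 in F/F and 7.95 in ΔIE by the probe set used. Its other probe sets differed by -1.11 and -1.08, past 2-fold, so the size for this gene depended on the probe set. Slc1a4 (ASCT1, which exchanges alanine, serine and cysteine) was 1.74-fold higher, at 8.12 in ΔIE against 7.32 in F/F. Slc1a5 (ASCT2, the glutamine exchanger) read 9.49 and 9.94. Slc1a2 and Slc1a3, the glutamate carriers of glia, and Slc1a6 and Slc1a7 stayed below the filter on both arrays.

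Family SLC36 holds proton-coupled carriers of small amino acids. Slc36a1, the gene of PAT1, which sits in lysosomes and the brush border, was 2.49-fold lower by its 1 probe set, at 7.89 in ΔIE against 9.21 in F/F. Slc36a2 and Slc36a3 lie next to it on the chromosome in that order; Slc36a2 differed by -0.27, and Slc36a3 read 5.36 and 5.55, below the filter. Slc36a4 (PAT4), elsewhere in the genome, read 8.37 and 8.65.

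The sodium-coupled neutral carriers of family SLC38 that were kept lay between -0.19 and 0.28, apart from Slc38a4. Slc38a4, the gene of SNAT4, best known from liver and placenta, was at 6.97 for F/F and 5.34 for ΔIE, and 6.41 and 4.74 by its second probe set. Its neighbours on the chromosome are Slc38a2 and then Slc38a1, the genes of the glutamine and alanine carriers SNAT2 and SNAT1. Slc38a2 read 11.25 and 11.30, and Slc38a1 read 9.30 and 9.56. Slc38a9, the lysosomal arginine sensor of the mTORC1 pathway, differed by 0.28 and its 3 other probe sets above the filter by 0.21 to 0.36. The remaining kept genes, Slc38a3, Slc38a6, Slc38a7 and Slc38a10, lay between -0.19 and 0.14.

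In family SLC43, Slc43a2, the basolateral efflux carrier LAT4 for large neutral amino acids, differed by -0.68, from 8.66 in F/F to 7.98 in ΔIE. Its 2 dimmer probe sets differed by -0.70 and -0.60, but the first fell below the filter in ΔIE (5.76). The second lay below it on both arrays, at 4.07 in F/F and 3.47 in ΔIE. Slc43a3 read 7.69 and 7.10, a difference of -0.59. Slc43a1, the related carrier LAT3, differed by 0.19.

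The 25 transporter genes below the filter on both arrays read between 2.99 and 6.09 and differed by -0.66 to 0.64, from Slc7a2 to Slc7a10. Beside those already described they were Slc6a3, Slc6a5, Slc6a11, Slc6a12, Slc6a13, Slc6a15, Slc6a16, Slc6a18 and Slc6a21 of family SLC6, Slc7a3, Slc7a12, Slc7a14 and Slc7a15 of family SLC7, and Slc38a5. Among them are the dopamine carrier gene Slc6a3 and the GABA carrier genes Slc6a11 and Slc6a13, known from neurons, glia and meninges. At this brightness a difference cannot be told from probe background.

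**Figure D3:**
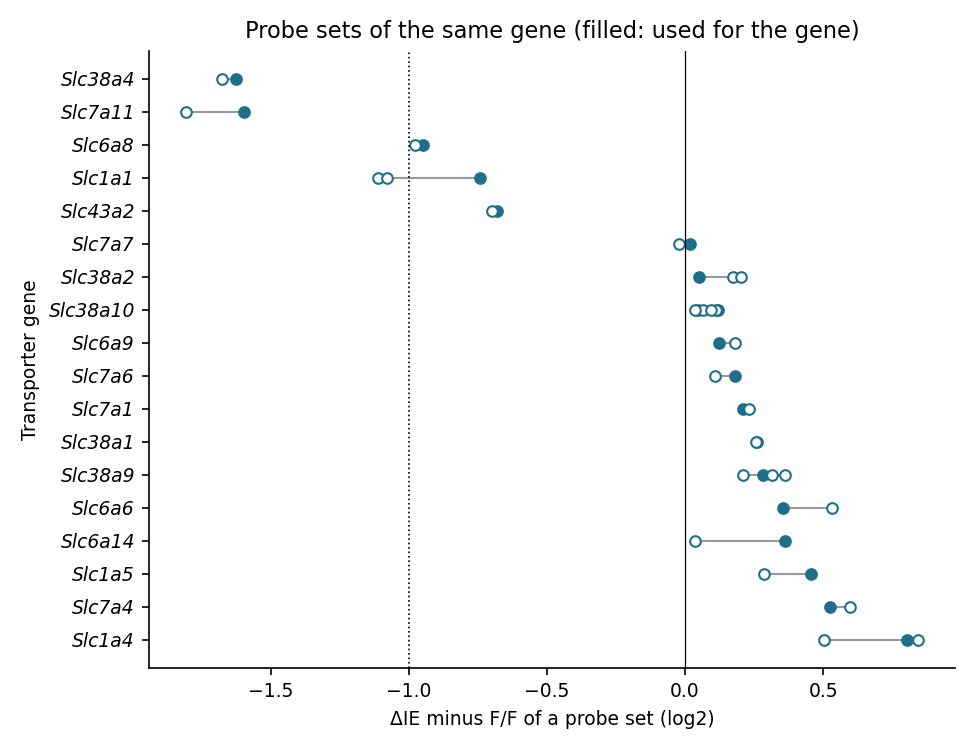
Differences (ΔIE minus F/F, log2) of every probe set above the filter for the 18 transporter genes with more than 1; the filled point is the probe set used for the gene and the dotted line marks 2-fold. The probe sets of Slc38a4 and of Slc7a11 all lie below -1, and those of Slc1a1 lie on both sides of it.

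Probe sets of the same gene gave similar differences. In the 18 transporter genes that had several probe sets over the filter, the 2 brightest lay a median of 0.06 apart and at most 0.37 (Slc1a1), and 17 had the same sign. The exception was Slc7a7, with 0.02 and -0.02. Over all 5110 such genes the median distance was 0.10, and 95% lay within 0.41. This measures agreement of probes on the same RNA and not variation between mice. Of the 40 kept genes 22 had 1 probe set above the filter, among them Slc15a1, Slc6a20a, Slc15a3, Slc36a1 and Slc3a1.

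The carriers were also grouped by membrane. Of 11 apical carriers of gut epithelium listed, 9 were kept. Slc15a1, Slc6a20a and Slc36a1 were at least 2-fold lower and Slc3a1 at least 2-fold higher. At 2-fold, 5.30% of all genes kept were lower and 1.15% higher. The range over the 9 carriers ran from -2.82 to 1.58 with a median of -0.29. Slc15a1 and Slc6a20a passed the filter through F/F alone, and without them the range began at -1.32 (Slc36a1). Of the 9 kept, 5 lay below 0, among them these 2, and 4 above. The negative sign of the median therefore rests on genes kept through F/F alone. The 7 basolateral carriers, Slc3a2, Slc7a7, Slc7a6, Slc7a8, Slc43a2, Slc7a1 and Slc38a2, all lay between -0.68 and 0.21 with a median of 0.02. Among the basolateral carriers, Slc7a8 passed the filter through F/F alone. The difference between these lists was not tested.

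**Figure D4:**
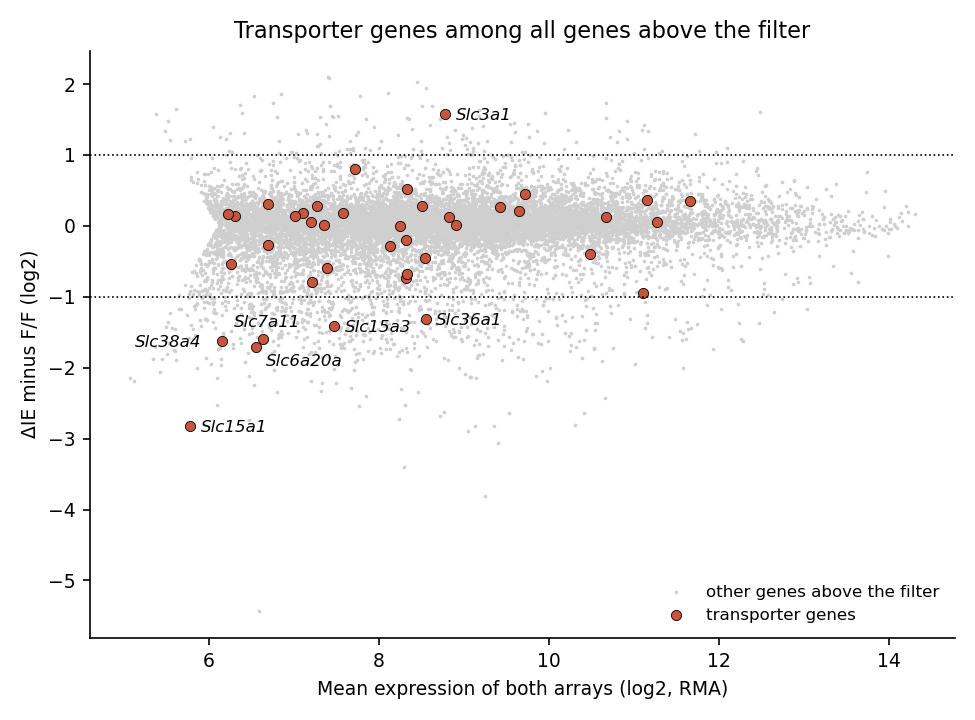
Difference (ΔIE minus F/F, log2) against mean expression of both arrays (log2) for all genes above the filter (grey) and the 40 transporter genes (red); dotted lines mark 2-fold. Slc15a1 (-2.82) and Slc3a1 (1.58) are the outermost transporters, and Slc15a1, Slc38a4, Slc7a11 and Slc6a20a lie towards the dim end.

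Other solute carriers on the same arrays were counted for comparison. Of 195 kept Slc and Slco genes outside these families, 6 were at least 2-fold lower (3.08%) and 10 at least 2-fold higher (5.13%), and at 1.5-fold 9.23% were lower and 14.9% higher. Their median was 0.18, with 134 above 0 and 61 below. Among all 11899 genes kept, 5.30% were lower and 1.15% higher at 2-fold, and 10.6% and 4.37% at 1.5-fold. Of all those genes, 6275 lay above 0 and 5529 below. Of the 40 transporter genes kept, 6 were at least 2-fold lower and 1 higher, and 22 lay above 0 and 17 below. The difference between these sets was not tested, and 4 of the 6 lower transporters were kept through F/F alone.

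As lists, the genes that work with these carriers were not lower in ΔIE. In the cystine, glutathione and NRF2 list, around the product of Slc7a11, none of 17 kept genes reached 2-fold, 12 were above 0, beside 6275 of all 11899 genes kept, and the median was 0.20. Gclc and Gclm, the subunits of the enzyme that makes the glutathione precursor, differed by 0.20 and 0.29. The NRF2 target Nqo1 differed by 0.83 and Hmox1 by -0.40. In the amino acid starvation list, 15 of 21 kept genes were above 0, with a median of 0.20. Atf4 itself differed by 0.15 and its targets Asns, Ddit3 and Chac1 by 0.20, 0.29 and 0.21. The list was not uniform: 6 of its kept genes were below 0. Among these, Cebpb differed by -0.91, Psat1 by -0.50, Ddit4 by -0.47, Psph by -0.34 and Shmt2 by -0.30. Cbs, which makes cystathionine on the way from methionine to cysteine, was the 1 gene past 2-fold, going from 8.49 in F/F to 9.58 in ΔIE, and Cth, the next enzyme, differed by 0.68.

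Peptidases that supply peptides and amino acids to the carriers also went both ways. Of 15 kept, Mme, the gene of neprilysin, was at 6.21 for F/F and 4.02 for ΔIE. Mme thus passed the filter through F/F alone, and its difference has no reliable size. Dpep1, a membrane dipeptidase, read 9.91 and 11.43, 2.87-fold higher. The meprin genes Mep1a and Mep1b differed by 0.70 and 0.75, Anpep (aminopeptidase N) by -0.49 and Dpp4 by 0.32, and the list median was 0.07. Of 13 kept carriers listed as other amino acid carriers, Slc47a1 was at the 2-fold threshold by its RMA values, 5.69, which lay below the filter, and 6.70. It is known as an exporter of organic cations and not of amino acids. The mitochondrial carriers Slc25a12 and Slc25a13, which exchange aspartate and glutamate, differed by -0.66 and 0.58, and Slc16a10, an aromatic amino acid carrier, by 0.02.

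Enzymes of arginine metabolism held the largest differences in the glutamine, glutamate and arginine list. Arg1, the arginase that splits arginine to ornithine and urea, was 3.03-fold lower, at 11.46 in ΔIE against 13.06 in F/F. Nos2, the inducible nitric oxide synthase, read 6.60 and 5.52, and Otc, which uses ornithine, read 8.22 and 9.58, 2.55-fold higher. The list median was 0.15 over 17 kept genes. Neutrophil markers had mean levels of 10.87 in F/F and 9.47 in ΔIE, and macrophage markers were lower as given above; their part in the values of Arg1 and Nos2 was not tested. All 20 kept genes of the amino acid sensing list upstream of mTORC1 lay between -0.21 and 0.40.

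**Figure D5:**
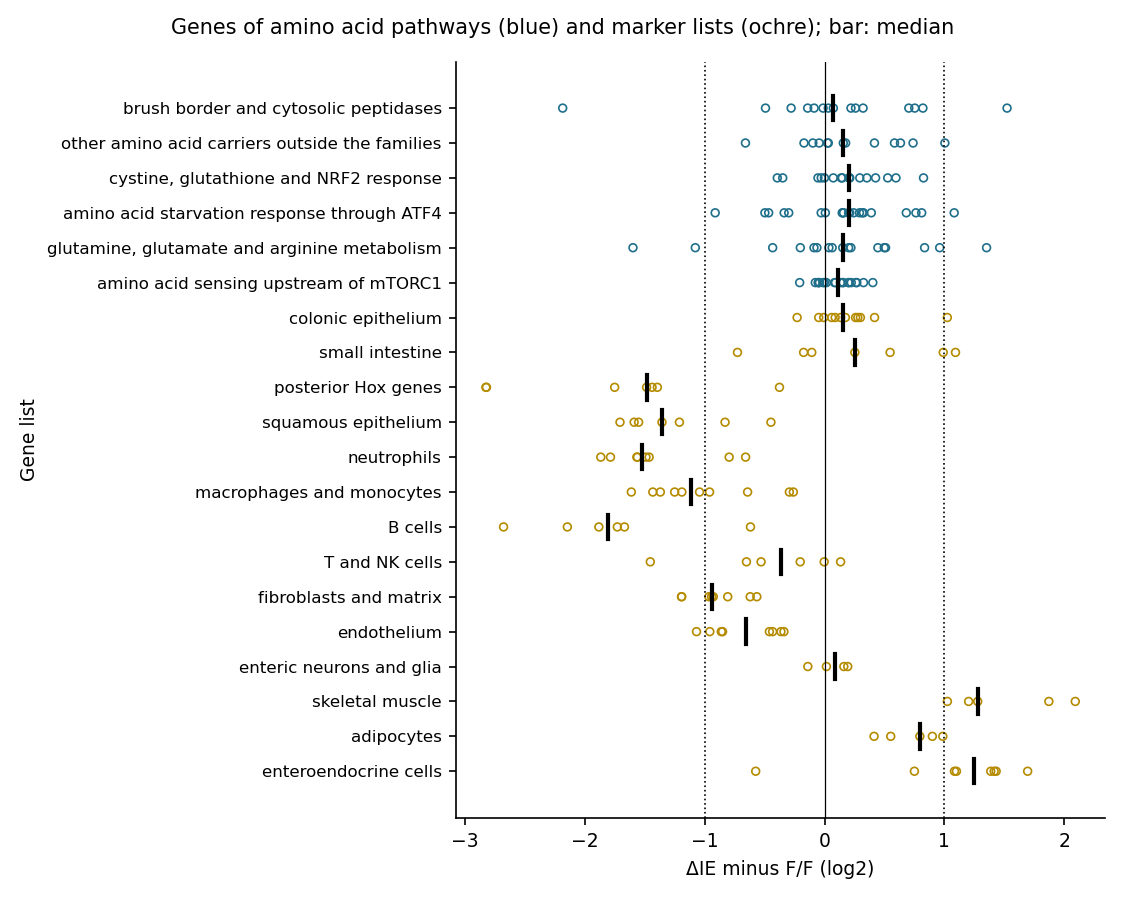
Differences (ΔIE minus F/F, log2) of single genes above the filter in 6 lists of amino acid pathways (blue) and 14 lists of cell and tissue markers (ochre), with list medians as bars and dotted lines at 2-fold. The pathway medians lie between 0.07 and 0.20, while marker medians range from -1.81 for B cells to 1.28 for skeletal muscle.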

How the data were processed

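Total RNA from the scrapings (250 ng) was labelled with biotin and hybridised to 1 array for each of the genotypes. The deposited table holds log2 expression, made by the authors with the affy package and RMA per the submitters' processing notes; the sources used here give no versions. RMA sets the distributions of arrays equal, so a shift common to nearly all genes would be lost, and it compresses differences of dim probe sets. Symbols came from the platform annotation, in which 34958 probe sets had 1 symbol, 932 several and 9211 none. All 129 member probe sets were found by gene ID in a GRCm38.p6 gene table and 0 symbols changed. 4 opposite strand probe sets, 1 probe set with several symbols and 64 control probe sets were left out.

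A gene took its probe set of highest mean and was kept at a higher value of at least 6.11. No test was run with 1 array per group, whose number limits the precision. Members and lists were chosen with earlier results of these data known. Genes were named where they differed by at least 1.5-fold, as the brightest of a family, by role in the gut, or as up to 5 members of a list with the largest difference. Tph1, Gclc, Gclm, Atf4 and its targets, Psat1, Ddit4, Psph, Shmt2, Anpep, Dpp4, Slc16a10 and the dim members were named after their values were seen. Summaries were tested on simulated data. Alternatives were the mean over probe sets, leaving out _s_at and _x_at probe sets, 3 other filters, median and lowess centring (span 0.3), and 1.5-fold and 3-fold thresholds. Python 3.11.15, numpy 2.4.6, pandas 2.3.3, statsmodels 0.14.6 and matplotlib 3.10.9 were used.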

Additional observations from a re-analysis of the deposited data

How the results depend on the processing

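The count of 6 transporters of 40 at least 2-fold lower became 2 of 22 under a 75th percentile filter (all genes 5.08%), 2 of 35 with both arrays above the filter (4.28%), 11 of 40 at 1.5-fold (10.6%) and 4 of 40 at 3-fold (1.49%). The count of 1 higher was 2 at 1.5-fold (4.37%) and 0 at 3-fold (0.168%). Averaging probe sets, leaving out _s_at and _x_at probe sets, no filter, median centring and lowess centring each gave the same 7 genes. The transporter median was 0.03 and ran from -0.01 with either centring to 0.12 with both arrays above the filter, so its sign is not settled. Slc15a1 differed by -2.82 and Slc7a11 by -1.60 in the main setting, and both failed the 2 stricter filters, where they have no value. Of these alternatives, averaging probe sets and lowess centring can move single genes by unlike amounts. Averaging cannot move Slc3a1, Slc6a4, Slc6a20a, Slc15a3, Slc36a1 and Slc43a3, which have 1 probe set each. Lowess centring moved Slc43a3 only from -0.59 to -0.62. Under both, none of the other 11 genes named at 1.5-fold or more changed direction or moved by over 0.41, the distance within which 95% of genes' brightest probe sets agreed. This was largely fixed in advance and is no measure of robustness. Where several probe sets existed, averaging took Slc1a1 from -0.74 to -0.98. With 1 array per genotype, no replicate could be left out. Signal near the filter limits the size of the Slc15a1, Slc6a20a, Slc38a4 and Slc7a11 differences.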
